A study of Mus musculus with 16 samples.

Results

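The dual-specificity MAP kinase phosphatases are 10 genes of the 52636 gene IDs in the count table, chosen by symbol as Dusp1, Dusp2, Dusp4, Dusp5, Dusp6, Dusp7, Dusp8, Dusp9, Dusp10 and Dusp16, and all 10 passed the filter on low counts. They fall into 4 nuclear inducible enzymes (Dusp1, Dusp2, Dusp4 and Dusp5), 3 cytoplasmic ERK phosphatases (Dusp6, Dusp7 and Dusp9) and 3 stress kinase phosphatases (Dusp8, Dusp10 and Dusp16). These enzymes remove phosphate from both the threonine and the tyrosine of the activation loop of a MAP kinase and so switch it off. Many are transcribed in response to the kinase they inactivate, which makes them negative feedback regulators, and they differ in where in the cell they act and in whether they prefer ERK or the stress kinases JNK and p38. In pluripotent mouse cells ERK signalling, downstream of FGF receptors, RAF and MEK, is a main signal for leaving the self-renewing state.

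RNA was sequenced from 16 libraries of mouse CRAFR26 cells of the type the labels call RSC, reached by differentiating embryonic stem cells that carry a c-RAF construct which 4-hydroxytamoxifen switches on. All cells were grown in N2B27 with IWP2, LIF and the MEK inhibitor PD0325901, and in all 4 groups the MEK inhibitor was replaced for 48 h by 250 nM of the FGF receptor inhibitor PD173074 before induction. The 0h group was taken without tamoxifen, the 2h and 4h groups after 2 h and 4 h in 250 nM tamoxifen, and the rev group after 4 h of tamoxifen and 2 h more with a MEK inhibitor. Each group held 4 libraries, 2 from clone 4 and 2 from clone 8, so the construct was seen in 2 clones only and every cell carried it. No group kept in tamoxifen for as long as rev without the inhibitor was analysed here, so the inhibitor and the added time cannot be told apart. The labels do not say that the 2 libraries of a clone came from separate cultures, so p-values measure the spread between these libraries, which may be technical in part.

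The libraries held 4313599 to 10444126 counts, of which 9 features took 47.1% to 79.7%, leaving 1252116 to 5409630 counts for all other genes. A count of 3 was worth 0.210 to 0.908 CPM, the count scaled to a common library size. The first principal component, with 51.0% of the variance, separated the clones, and the third, with 8.57%, separated 0h and 4h from 2h and rev. The rev libraries of clone 8 differed most from each other, with a chi-square of 67.2 per degree of freedom against 4.36 for those of clone 4. The summed level of 10 pluripotency markers was 987 to 1645 CPM in every library, against 3.32 to 9.99 CPM for 7 primitive endoderm markers and at most 3.60 CPM for 6 fibroblast markers. The 6 neural markers summed to 32.6 to 78.1 CPM, the 6 mesoderm markers to 3.60 to 12.4 CPM and the 5 trophoblast markers to 2.30 to 21.6 CPM. Single markers moved within these sums. The neural marker Pax6 was higher at 4 h than at 0 h (log2 change 2.37, adjusted p 8.40e-05) and lower in rev than at 4 h (-2.19, adjusted p 0.000173). Of the 4 neural markers tested, 1 was higher and 1 lower in each of these comparisons. The mesoderm marker Eomes, 1 of 2 tested, was higher at 4 h (1.24, adjusted p 0.000859). The pluripotency gene Nanog was lower at 4 h (-0.75, adjusted p 0.00490) and higher in rev than at 4 h (1.08, adjusted p 0.000308). Of the 10 pluripotency markers, 4 were higher and 2 lower at 4 h, beside 7.35% and 5.56% of all genes tested. In rev against 4h, 2 of these 10 were higher and 4 lower, beside 4.50% and 5.10% of all genes tested. The part of these shifts in the phosphatase values was not tested.

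Promoter windows of 300 bases, from 250 before to 50 after the annotated start, were found in RefSeq (GRCm38.p6) for 8 of the 10 genes. The windows of Dusp1, Dusp5, Dusp6 and Dusp8 are shown because these genes had different time courses below. Capitals mark matches to the cAMP response element TGACGTCA (CRE), the E-box CACGTG or the CArG box, the motif of serum response factor.
Dusp1: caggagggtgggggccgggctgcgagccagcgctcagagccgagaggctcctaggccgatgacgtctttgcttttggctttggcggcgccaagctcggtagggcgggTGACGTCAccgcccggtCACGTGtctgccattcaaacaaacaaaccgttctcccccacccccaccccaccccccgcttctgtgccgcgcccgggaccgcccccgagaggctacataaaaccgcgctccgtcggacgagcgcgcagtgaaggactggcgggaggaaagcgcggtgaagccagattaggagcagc
Dusp5: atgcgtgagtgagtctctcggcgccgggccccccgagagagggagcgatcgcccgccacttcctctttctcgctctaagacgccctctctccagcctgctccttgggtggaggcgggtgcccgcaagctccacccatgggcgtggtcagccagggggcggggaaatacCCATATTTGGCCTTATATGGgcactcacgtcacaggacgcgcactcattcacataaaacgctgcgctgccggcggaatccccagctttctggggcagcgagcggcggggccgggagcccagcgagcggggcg
Dusp6: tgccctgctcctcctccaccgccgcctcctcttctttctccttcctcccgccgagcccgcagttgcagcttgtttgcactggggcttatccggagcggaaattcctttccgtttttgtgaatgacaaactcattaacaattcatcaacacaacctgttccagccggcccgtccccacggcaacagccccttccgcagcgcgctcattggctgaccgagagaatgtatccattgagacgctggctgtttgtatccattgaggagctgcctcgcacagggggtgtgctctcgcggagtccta
Dusp8: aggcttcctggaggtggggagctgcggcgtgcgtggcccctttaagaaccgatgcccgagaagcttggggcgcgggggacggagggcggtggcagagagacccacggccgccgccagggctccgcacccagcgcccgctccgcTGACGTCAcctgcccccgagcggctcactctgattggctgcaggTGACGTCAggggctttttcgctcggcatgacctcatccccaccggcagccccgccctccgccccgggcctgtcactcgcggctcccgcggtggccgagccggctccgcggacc
The windows lie at chr17:26508423-26508722 (minus strand, Dusp1), chr19:53528895-53529194 (plus strand, Dusp5), chr10:99262981-99263280 (plus strand, Dusp6) and chr7:142095235-142095534 (minus strand, Dusp8). The Dusp5 window held 2 CArG boxes that adjoin without overlap, beginning at bases -82 and -72 from the start, and 1.63% of 32851 RefSeq windows of this length held at least 1. Dusp8 had 2 CRE matches, at -107 and -63, and Dusp1 had 1 at -143 beside an E-box at -126. A CRE was found in 1.79% of all windows and an E-box in 7.15%. The Dusp2 window held 1 E-box, at -109. On both strands, the AP-1 motif TGANTCA (7.81% of all windows), the ETS motif CCGGAAG (8.86%) and the EGR motif GCGTGGGCG (0.612%) matched in none of the 8 windows, and those of Dusp6, Dusp7, Dusp10 and Dusp16 held none of the 6 motifs. A match describes letters in this window and was not tested as a binding site.

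Before induction the family was led by enzymes outside the inducible group. Compared per kilobase of exon, mean levels at 0h were 7.40 CPM per kb for Dusp16, 4.64 for Dusp9, 4.61 for Dusp7 and 2.92 for Dusp1. Dusp5 followed at 1.11, Dusp6 at 0.931, Dusp4 at 0.902, Dusp10 at 0.710, Dusp2 at 0.210 and Dusp8 at 0.0849 CPM per kb. In this order only the steps from Dusp1 to Dusp5 and from Dusp10 to Dusp2 were free of overlap between the 4 libraries of one gene and those of the next. At 4 h Dusp6, at 15.6 CPM per kb, and Dusp4, at 14.4, had the highest means, although their ranges overlapped each other and Dusp16 at 7.72. In rev, Dusp9 at 6.84 and Dusp16 at 6.62 CPM per kb led again.

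**Figure D1:**
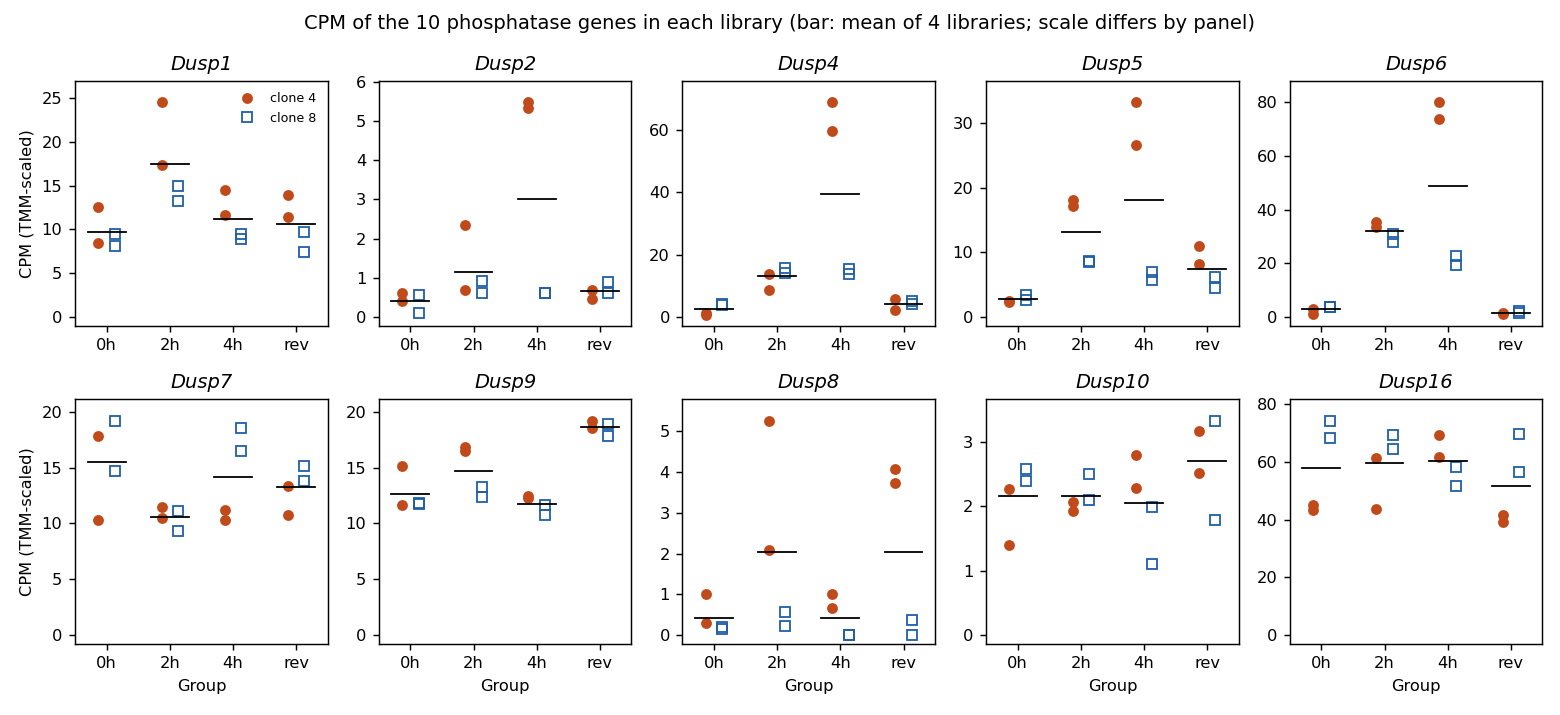
CPM of each gene in the 4 groups, with filled circles for the 2 clone 4 libraries, open squares for the 2 clone 8 libraries and a bar for the mean of 4. Dusp6 rises in both clones and falls in rev to between 1.07 and 2.42 CPM, while at 4 h the clone 4 libraries of Dusp2, Dusp4, Dusp5 and Dusp6 stand above those of clone 8.

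Over both clones, 5 of the 10 genes were higher and 1 lower at 2 h than at 0 h, where 9.49% of all 12742 genes tested were higher and 7.48% lower (edgeR quasi-likelihood test, Benjamini-Hochberg adjusted p under 0.05). Those higher were Dusp1, Dusp4, Dusp5, Dusp6 and Dusp8, and Dusp7 was lower. At 4 h against 0 h, 4 genes were higher (Dusp2, Dusp4, Dusp5 and Dusp6) and 0 lower, beside 7.35% and 5.56% of all genes, and the number lower was also 0 by DESeq2 and at an unadjusted p under 0.05. The median log2 change of the 10 genes was 1.15 at 2 h and 0.15 at 4 h, with medians of 0.00 and -0.01 over all genes. From 4h to rev, 4 genes fell (Dusp2, Dusp4, Dusp5 and Dusp6) and 2 rose (Dusp8 and Dusp9), beside 5.10% of all genes lower and 4.50% higher. All 4 libraries lay above all 4 of the other group for 5 genes at 2 h (Dusp1, Dusp2, Dusp4, Dusp5 and Dusp6, beside 8.59% of all genes) and for 3 at 4 h (Dusp4, Dusp5 and Dusp6, beside 7.37%). For Dusp2 the lowest 2h library, at 0.608 CPM (8 counts), barely exceeded the highest 0h library, at 0.606 CPM (4 counts). Its change at 2 h was not called in the edgeR test (adjusted p 0.132). Between 4h and rev, 2 genes were lower without overlap (Dusp4 and Dusp6, beside 4.58%) and 1 was higher (Dusp9, beside 4.29%). The 2h and 4h comparisons share the 0h libraries, and the 4h and rev comparisons share the 4h libraries, so they are not independent of each other.

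**Figure D2:**
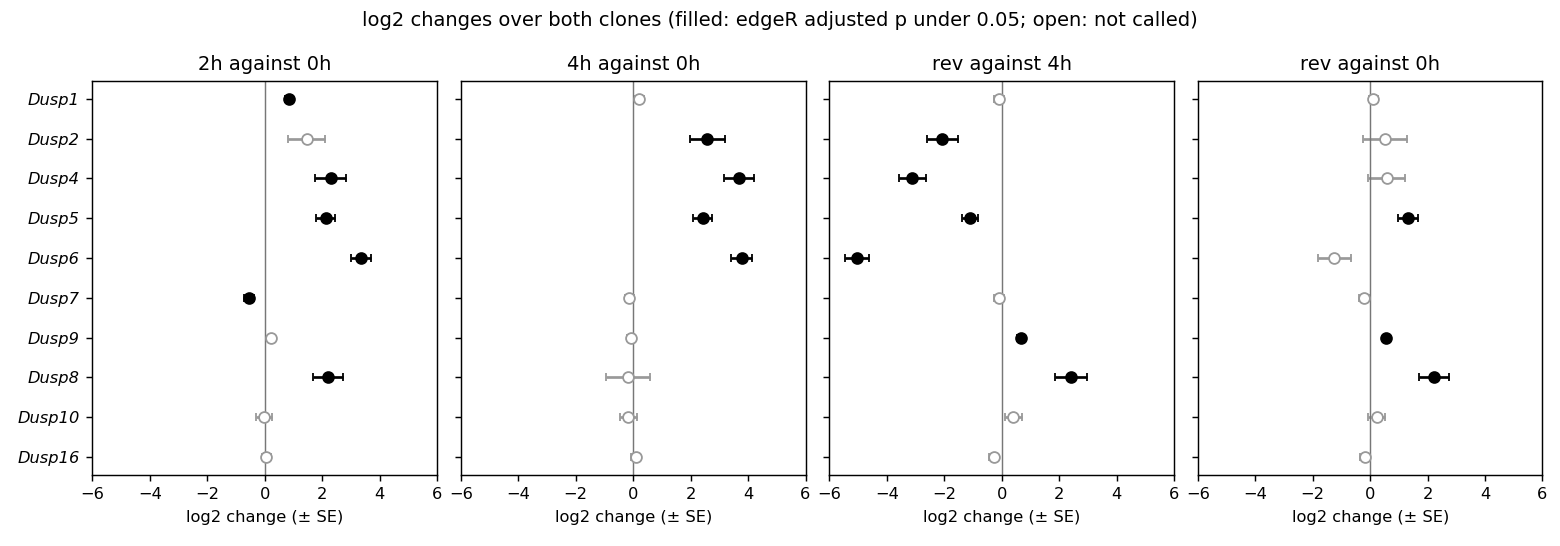
log2 changes with standard errors for the 10 genes in 4 comparisons of 4 against 4 libraries, filled where the edgeR adjusted p was under 0.05. Dusp6 is at 3.35 at 2 h, at 3.78 at 4 h, close to Dusp4 at 3.69, and at -5.03 from 4h to rev, and Dusp5 is still above 0 when rev is set against 0h (1.32).

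Among the nuclear enzymes, 3 of 4 were higher at 2 h and 3 of 4 at 4 h. Dusp1, an immediate early gene whose product acts on ERK and the stress kinases, was high only at 2 h. It lies on chromosome 17 (26505590 to 26562128, minus strand, GRCm38). It measured 12.6 and 8.49 CPM in clone 4 and 8.09 and 9.48 CPM in clone 8 at 0 h, and 17.4, 24.5, 14.97 and 13.2 CPM in the same order at 2 h. At 4 h the values were 14.5, 11.7, 8.85 and 9.49 CPM, and in rev 11.4, 14.0, 9.69 and 7.42 CPM. All 4 libraries at 2 h were above all 4 at 0 h, whereas the 4h and rev libraries overlapped those at 0 h. The log2 change was 0.84 at 2 h (SE 0.15, adjusted p 0.00102) and 0.21 at 4 h (SE 0.16, adjusted p 0.444). From 2 h to 4 h Dusp1 fell by 0.63 (SE 0.15, adjusted p 0.01001), and that fall was seen in both clones, with log2 changes of -0.64 in clone 4 and -0.62 in clone 8. The call was lost with library totals (adjusted p 0.0742) and without the clone term (adjusted p 0.133). Between 2h and 4h, 3 of the 10 genes were called, 1 higher and 2 lower, beside 5.78% and 6.36% of all genes.

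Dusp4 encodes a nuclear phosphatase of ERK and JNK and lies on chromosome 8 (34807297 to 34819894, plus strand). At 0 h it was at 0.599 and 1.36 CPM in clone 4, which are counts of 3 and 9, and at 4.05 and 3.88 CPM in clone 8. At 2 h the levels were 8.82 and 14.0 CPM in clone 4 and 15.6 and 14.2 CPM in clone 8. At 4 h clone 4 reached 68.8 and 59.7 CPM and clone 8 stayed at 15.4 and 13.8 CPM. The 2h and 4h libraries lay above all those at 0 h in both clones, and from 2 h to 4 h the levels rose further in clone 4 and overlapped in clone 8. The pooled log2 change was 2.29 at 2 h (SE 0.53, adjusted p 0.00618) and 3.69 at 4 h (SE 0.52, adjusted p 0.000114). The rise of 1.39 from 2 h to 4 h (SE 0.41, adjusted p 0.0317) was lost without any 1 of the 4 clone 4 libraries of these groups, with adjusted p of 0.0874 to 0.117. In rev Dusp4 was at 5.65 and 2.23 CPM in clone 4 and 4.24 and 5.25 CPM in clone 8, all below the 4h libraries. The log2 change from 4 h to rev was -3.11 (SE 0.48, adjusted p 0.000368). Against 0h the rev libraries differed by 0.58 (SE 0.65, adjusted p 0.622), with a log2 change of 1.88 in clone 4 (adjusted p 0.00480) and 0.31 in clone 8 (adjusted p 0.635).

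Dusp5, an ERK-specific nuclear phosphatase (chromosome 19, 53529109 to 53542431, plus strand), shares 22.1% of its exon length with an antisense gene. The strand setting of the counting is not given in the sources used here, so reads of the 2 genes cannot be told apart there. At 0 h it was at 2.40 and 2.43 CPM in clone 4 and 2.70 and 3.45 CPM in clone 8. At 2 h it was at 18.2 and 17.1 CPM in clone 4 and 8.66 and 8.55 CPM in clone 8, and at 4 h at 33.2, 26.7, 5.73 and 7.04 CPM in the same order. In rev the levels were 8.24, 11.0, 4.54 and 6.27 CPM. Every induced and every rev library was above every 0h library, and within clone 8 the 4h and rev values overlapped. The log2 change was 2.12 at 2 h (SE 0.33, adjusted p 0.000264) and 2.42 at 4 h (SE 0.33, adjusted p 8.03e-05). The change to rev was -1.10 from 4h (SE 0.28, adjusted p 0.0180), a call lost without any 1 of the 4 clone 4 libraries involved (adjusted p 0.0595 to 0.118). Against 0h, rev was still higher by 1.32 (SE 0.36, adjusted p 0.0235), in a comparison where 3 of the 10 genes and 5.51% of all genes were called higher. That call was lost without either 0h clone 4 library, without replicate 2 of clone 4 in rev or without replicate 2 of clone 8 in rev (adjusted p 0.0659 to 0.101). Within each clone rev remained above 0h, by 2.00 in clone 4 (adjusted p 1.84e-06) and 0.91 in clone 8 (adjusted p 0.0375).

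Dusp2, a nuclear phosphatase best known from activated lymphocytes (chromosome 2, 127336159 to 127338376, plus strand), was low throughout. At 0 h it had 2, 4, 1 and 4 counts, and at 4 h 41 and 21 counts in clone 4 and 6 and 4 in clone 8. These 4h counts are 5.47 and 5.33 CPM in clone 4 and 0.603 and 0.613 CPM in clone 8. The 4h libraries of clone 4 were thus above those of clone 8, whose values were close to the level of a few counts. Over both clones the log2 change was 2.58 at 4 h (SE 0.60, adjusted p 0.00762) and -2.07 from 4h to rev (SE 0.54, adjusted p 0.0200). The second call was lost without any 1 of the 4 clone 4 libraries of the 4h and rev groups, with adjusted p of 0.0721 to 0.127. Within clone 4 the change at 4 h was 3.35 (adjusted p 9.15e-06), and within clone 8 it was 0.97 (adjusted p 0.550). The difference between these changes, -2.38 (SE 1.12), was not called in the edgeR interaction test (adjusted p 0.275).

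Of the cytoplasmic ERK phosphatases, Dusp6 alone was called higher at 2 h or at 4 h. Dusp6 is the classical feedback phosphatase of ERK and lies on chromosome 10 (99263231 to 99267489, plus strand). It measured 1.20 and 3.03 CPM in clone 4 and 3.84 and 3.59 CPM in clone 8 at 0 h, which are counts of 6, 20, 37 and 25. At 2 h it was at 33.5, 35.4, 31.1 and 28.0 CPM in the same order, and at 4 h at 80.0, 73.9, 22.8 and 19.3 CPM. In rev it was at 1.47, 1.07, 2.42 and 1.41 CPM, which are 8 to 13 counts. The induced libraries of both clones were all above those at 0 h and in rev, and at 2 h the clones were within 28.0 to 35.4 CPM of each other. The log2 change was 3.35 at 2 h (SE 0.36, adjusted p 5.61e-06), or 10.2-fold, and 3.78 at 4 h (SE 0.36, adjusted p 1.37e-06), or 13.7-fold. The log2 change from 4 h was -5.03 in rev (SE 0.41, adjusted p 3.55e-07), or 32.6-fold lower. Between 2h and 4h Dusp6 went up by 1.17 in clone 4 (SE 0.13, adjusted p 9.48e-09) and its log2 change in clone 8 was -0.47 (SE 0.13, adjusted p 0.0216). Rev against 0h gave -1.25 (SE 0.57, adjusted p 0.170), with clone values of -0.83 (adjusted p 0.158) and -1.11 (adjusted p 0.0473). Against 2h, the rev libraries had 2 of the 10 genes lower, Dusp6 at -4.60 and Dusp1 at -0.72, where 1.01% of all genes were called lower. Dusp4 was at -1.72 in this comparison (SE 0.50, adjusted p 0.0893), with no overlap of the libraries, and it was called lower within each clone, at -1.56 in clone 4 (adjusted p 0.000150) and -1.59 in clone 8 (adjusted p 0.000206). For Dusp1 this call was lost without replicate 2 of clone 4 at 2 h, replicate 1 of clone 4 in rev or replicate 2 of clone 8 in rev (adjusted p 0.0609 to 0.0769).

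The other cytoplasmic enzymes changed less. Dusp7 (chromosome 9, 106368632 to 106375724, plus strand) was at 17.8, 10.3, 19.2 and 14.7 CPM at 0 h and at 10.5, 11.47, 9.34 and 11.1 CPM at 2 h, clone 4 first. The groups overlapped through replicate 2 of clone 4 at 0 h. The log2 change was -0.55 (SE 0.17, adjusted p 0.0309), and it was lost without replicate 1 of either clone at 0 h or without either clone 8 library at 2 h (adjusted p 0.0797 to 0.125). With library totals in place of TMM scaling its adjusted p was 0.435. Within clone 8 the change of Dusp7 at 2 h was -0.74 (adjusted p 0.00297), and within clone 4 it was -0.32 (adjusted p 0.282). The difference between these changes, -0.43, was not called in the edgeR interaction test (adjusted p 0.359). From 2 h to 4 h Dusp7 changed by 0.76 in clone 8 (adjusted p 0.00445) and by -0.05 in clone 4 (adjusted p 0.892). Dusp9 (chromosome X, 73639419 to 73643514, plus strand), a phosphatase known for its part in embryonic stem cells and placenta, was at 10.7 to 12.4 CPM at 4 h and 17.9 to 19.2 CPM in rev. The rev libraries were above all others, which spanned 10.7 to 16.9 CPM over the 0h, 2h and 4h groups. The log2 change was 0.66 against 4h (SE 0.11, adjusted p 0.000914) and 0.57 against 0h (SE 0.11, adjusted p 0.00349), higher in both clones in each case. Both calls were lost with library totals, at 0.45 (adjusted p 0.418) and 0.32 (adjusted p 0.516), a scaling that moved the median of all genes by -0.20 and -0.24 in these comparisons.

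Of the stress kinase phosphatases, which act mainly on JNK and p38, 1 of 3, Dusp8, was called higher at 2 h. Dusp8 (chromosome 7, 142079490 to 142095843, minus strand) was read at few counts. It had 5, 2, 2 and 1 counts at 0 h, 16, 38, 3 and 8 at 2 h, 5, 4, 0 and 0 at 4 h, and 33, 42, 0 and 3 in rev, clone 4 first. Its level was high at 2 h and in rev in clone 4, where it measured 2.08 and 5.25 CPM at 2 h, 0.667 and 1.02 CPM at 4 h and 3.73 and 4.07 CPM in rev. In clone 8 no library exceeded 0.561 CPM. The pooled log2 change was 2.20 at 2 h (SE 0.54, adjusted p 0.00861), -2.39 from 2h to 4h (SE 0.55, adjusted p 0.00957), 2.41 from 4h to rev (SE 0.55, adjusted p 0.00848) and 2.22 for rev against 0h (SE 0.54, adjusted p 0.0131). Single clone 4 libraries decided these calls, since leaving out replicate 2 at 0 h, replicate 2 at 2 h, replicate 1 at 4 h or replicate 2 in rev each ended at least 1 of them (adjusted p 0.0574 to 0.107). Of 3 trophoblast markers tested, Hand1 and Krt7 were also higher at 2 h (2.07 and 1.92) and in rev against 0h (2.02 and 2.06). They had at most 25 and 41 counts in a library, and all 3 trophoblast markers were lower in clone 8. Of 3 primitive endoderm markers tested, 1 was higher at 2 h and 2 were higher in rev against 0h, beside 9.49% and 5.51% of all genes. The 2h and rev groups are those that the third principal component set apart from 0h and 4h, and the part of that split, or of these markers, in the Dusp8 and Dusp9 values was not tested.

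Dusp10, a phosphatase of JNK and p38 (chromosome 1, 184013302 to 184075636, plus strand), stayed between 1.11 and 3.33 CPM in all 16 libraries, with adjusted p of 0.279 to 0.975 over the 10 comparisons. Its log2 change at 4 h was -0.17 (SE 0.30, adjusted p 0.773). Dusp16, a JNK phosphatase on chromosome 6 (134715468 to 134792625, minus strand), was at 45.1 and 43.2 CPM in clone 4 and 74.2 and 68.3 CPM in clone 8 at 0 h. At 4 h it was at 69.2 and 61.7 CPM in clone 4 and 58.3 and 51.6 CPM in clone 8. The order of the clones was thus opposite at 0 h and 4 h, without overlap in either group. The pooled log2 change of 0.09 (SE 0.15, adjusted p 0.750) joined 0.58 in clone 4 (SE 0.13, adjusted p 0.00160) with -0.37 in clone 8 (SE 0.12, adjusted p 0.0719). In rev the levels were 39.2, 41.5, 69.6 and 56.3 CPM, again lower in clone 4.

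The clones were then compared in a separate model with 1 term per group within each clone (8 terms). It tested whether the change in clone 8 differed from that in clone 4. At 4 h against 0 h, 4 of the 10 genes differed between clones, beside 5.72% of all genes. The change was smaller in clone 8 for Dusp4, with a clone 8 minus clone 4 log2 difference of -4.07 (SE 0.49, adjusted p 6.81e-07). For Dusp5 and Dusp6 the difference was -2.60 each (adjusted p 2.11e-05 and 4.86e-06), and for Dusp16 it was -0.95 (adjusted p 0.000700). At 2 h, Dusp5 alone differed (-1.36, SE 0.38, adjusted p 0.0201) beside 7.94% of all genes, and it no longer did without replicate 2 of clone 4 or of clone 8 at 0 h (adjusted p 0.105 and 0.115). For rev against 4h, 5 genes differed, beside 13.2% of all genes, and each fell less in clone 8 or, for Dusp2 and Dusp16, had a fitted change above 0 there. The differences were 3.61 for Dusp2, 2.5003 for Dusp4, 1.51 for Dusp5, 2.31 for Dusp6 and 0.87 for Dusp16. Without replicate 2 of clone 8 in rev, those of Dusp2 (adjusted p 0.228) and Dusp5 (adjusted p 0.110) were no longer called. With library totals the Dusp16 difference was -0.62 at 4 h (adjusted p 0.562) and 0.17 from 4h to rev (adjusted p 0.737), where the median of all genes moved by 0.35 and -0.67.

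**Figure D3:**
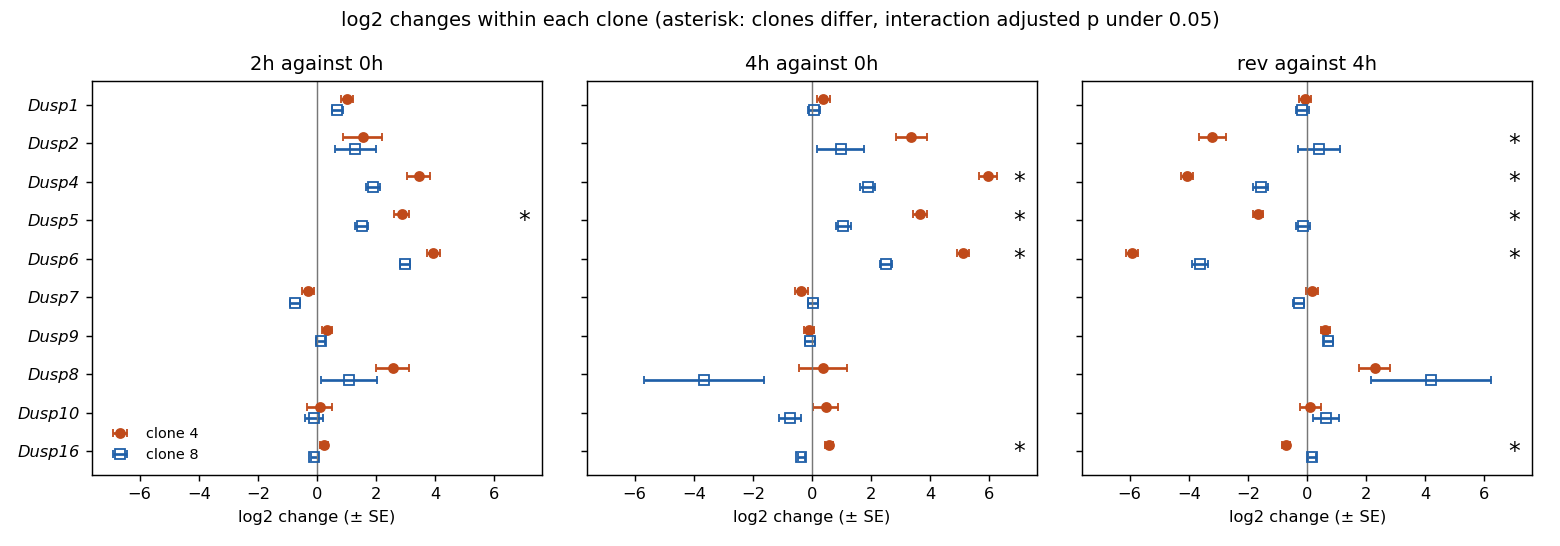
log2 changes with standard errors within clone 4 (filled circles) and clone 8 (open squares), 2 against 2 libraries each, from a model of all 16, with an asterisk where the clones differed. At 4 h against 0 h Dusp6 is at 5.10 in clone 4 and 2.505 in clone 8; fitted clone 8 changes of Dusp8 that involve 4 h rest on counts of 0 there and give no size.

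Within clone 4, 5 of the 10 genes were higher at 4 h (Dusp2, Dusp4, Dusp5, Dusp6 and Dusp16), beside 11.0% of all genes, and within clone 8, 3 were (Dusp4, Dusp5 and Dusp6), beside 2.94%. In rev against 4h Dusp2, Dusp4, Dusp5, Dusp6 and Dusp16 were lower in clone 4, beside 12.9% of all genes, and 2 were higher (Dusp8 and Dusp9), beside 13.5%. In clone 8, 2 were lower (Dusp4 and Dusp6), beside 2.61% of all genes, and 1 was higher (Dusp9), beside 3.15%. In clone 8 the change of Dusp5 from 4h to rev was -0.14 (SE 0.25, adjusted p 0.846). Averaged over all groups, 6 of the 10 genes differed in level between the clones, beside 34.9% of all genes. Dusp1, Dusp2, Dusp5, Dusp6 and Dusp8 were lower in clone 8, and Dusp16 was higher by 0.35 (SE 0.11, adjusted p 0.0163). Tested genes of chromosome 6, which carries Dusp16, had a median clone difference of 0.16 over 624 genes, against -0.01 over all genes. The part of that shift in the Dusp16 difference was not tested. For Dusp6 the clone difference of -0.72 (adjusted p 0.0271) was not called without any 1 of the 4h libraries (adjusted p 0.0573 to 0.120), and it was -0.28 both by DESeq2 (adjusted p 0.579) and with library totals (adjusted p 0.439). Its mean was higher in clone 8 at 0 h (3.72 against 2.12 CPM) and in rev (1.91 against 1.27 CPM), and higher in clone 4 at 2 h and 4 h.

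The ratios between the 3 strongly induced genes were compared within each library, in 9 exact two-sided permutation tests chosen after the values had been seen, with groups shuffled within each clone. These 36 arrangements allow no p below 0.0556, so no ratio could pass 0.05 and the values describe these libraries. From 4h to rev the log2 ratio of Dusp6 to Dusp5 went from 1.52 ± 0.30 to -2.05 ± 0.93 (SD, n = 4), a difference of -3.58 (exact p 0.0556, the smallest possible, adjusted over the 9 tests 0.0714), with -4.06 in clone 4 and -3.09 in clone 8. For Dusp6 to Dusp4 the difference was -1.68 and for Dusp4 to Dusp5 it was -1.89, with the same p in both exact tests. In these libraries Dusp6 was thus reduced furthest of the 3 and Dusp5 least, in both clones. At 4 h against 0 h the ratio of Dusp6 to Dusp4 differed by -0.01 (exact permutation p 0.944), a mean of -0.64 in clone 4 and 0.61 in clone 8, while those of Dusp6 and of Dusp4 to Dusp5 were higher by 1.54 and 1.55 (exact p 0.0556, adjusted 0.0714). The 3 ratios share members and libraries and are not independent.

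Summed per length, the family stood at 23.5 ± 3.39 CPM per kb at 0 h, 43.5 ± 4.77 at 2 h, 59.2 ± 28.7 at 4 h and 27.4 ± 0.811 in rev (SD, n = 4). At 4 h the clone 4 libraries summed to 79.1 and 88.7 CPM per kb and those of clone 8 to 33.9 and 35.2. Dusp6 made up 3.97% of the sum at 0 h, 23.5% at 2 h, 24.4% at 4 h and 1.84% in rev. The cytoplasmic enzymes together held a mean of 43.5%, 43.2%, 42.5% and 41.3% of the sum in the 4 groups, but from 0 h to 4 h their share went from 46.5% to 38.6% in clone 4 and from 40.5% to 46.4% in clone 8 (2 libraries each). Within these means the share of Dusp7 went from 19.5% to 7.29% and that of Dusp9 from 20.05% to 12.4% between 0 h and 2 h. Over this time the mean level of Dusp7 went from 4.61 to 3.16 CPM per kb and that of Dusp9 from 4.64 to 5.42. The nuclear enzymes went from 22.0% at 0 h to 41.0% at 4 h, the mean of 50.2% in clone 4 and 31.8% in clone 8, and 29.8% in rev. The stress kinase phosphatases went from 34.5% at 0 h (libraries at 28.2% to 38.7%) to 16.5% at 4 h (11.2% to 22.3%). The sum grew over this time, and 0 of these 3 genes were called at 4 h against 0 h. Mean levels of Dusp16, Dusp10 and Dusp8 were 7.40, 0.710 and 0.0849 CPM per kb at 0 h. At 4 h they were 7.72, 0.672 and 0.0864 CPM per kb.

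**Figure D4:**
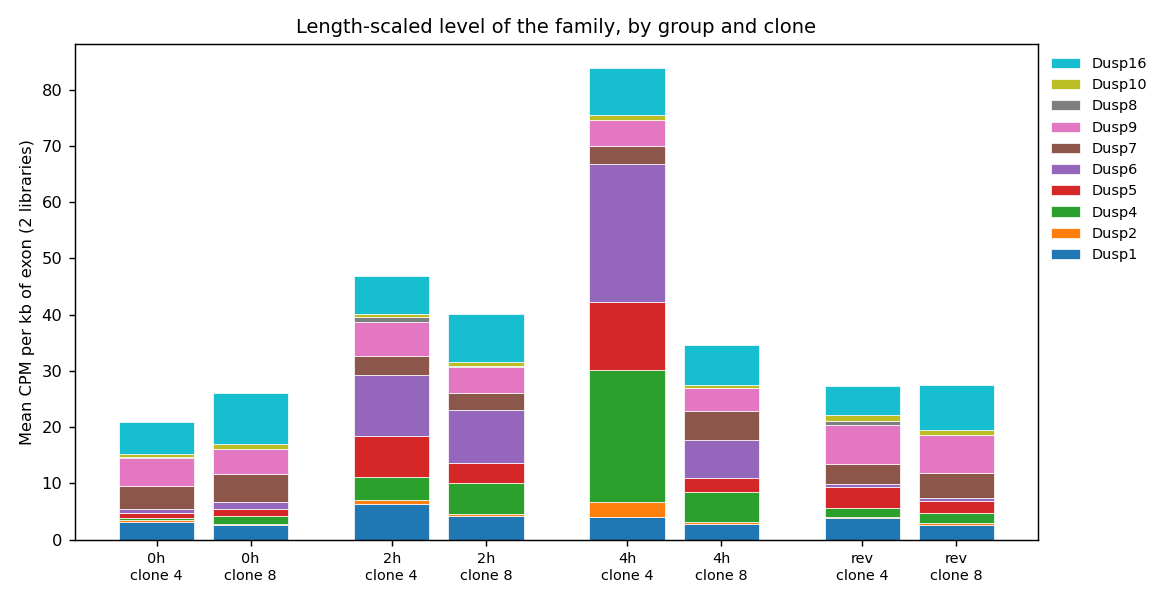
Stacked mean level per kilobase of exon of the 10 genes in each group and clone (2 libraries per bar). At 4 h the clone 4 bar reaches 83.9 CPM per kb and that of clone 8 reaches 34.6, while the bars at 0 h and in rev lie between 20.96 and 27.5.

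Other genes of the pathway were read beside the phosphatases. Of the Sprouty and Spred inhibitors of receptor and RAF signalling, 6 of 7 were tested. At 2 h 3 were higher, beside 9.49% of all genes (Spry4 by 5.60, Spry2 by 1.45 and Spred1 by 1.41 on the log2 scale). At 4 h 5 were higher, beside 7.35% of all genes, led by Spry4 at 5.78 (SE 0.35, adjusted p 5.48e-09). From 4h to rev 5 fell, beside 5.10% of all genes. Against 0h, the 6 had adjusted p of 0.0890 to 0.879 in rev. Of 16 atypical dual-specificity phosphatases, which lack the MAP kinase docking domain, 9 were tested. Of these Dusp27 was higher at 2 h (0.32, adjusted p 0.0399), the 9 had adjusted p of 0.116 to 0.989 at 4 h, and Dusp14 was higher in rev than at 4 h (0.84, adjusted p 0.0412) and than at 0 h (0.86, adjusted p 0.0334). Of the tyrosine phosphatases with a kinase interaction motif, 1 of 3 was tested, Ptpn7, which was lower in rev than at 4 h over both clones (-2.03, adjusted p 0.0309). Its clones differed, with a clone 8 minus clone 4 log2 difference of -3.02 at 4 h against 0 h (adjusted p 0.000767) and 4.33 from 4h to rev (adjusted p 1.02e-05). Dusp14 also differed, by 1.23 at 2 h (adjusted p 0.00753) and 1.47 from 4h to rev (adjusted p 0.000613). Of the 6 tested Sprouty and Spred genes, 4 had a lower change in clone 8 at 4 h against 0 h, beside 3.69% of all genes. They included Spry4 (-2.97, adjusted p 5.70e-06), Spred1 (-3.47, adjusted p 7.50e-10) and Spry2 (-0.81, adjusted p 0.0277).

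Among 9 MAP kinases tested, Mapk11 (p38 beta) was higher at 4 h (2.01, adjusted p 0.00207) and fell in rev (-1.99, adjusted p 0.00218), and the change to rev differed between the clones by 2.10 (adjusted p 0.0444). Mapk8 (JNK1) was higher at 2 h (0.58, adjusted p 0.00675), in rev against 4h (0.46, adjusted p 0.0424) and in rev against 0h (0.59, adjusted p 0.0121), and Mapk7 (ERK5) was lower at 2 h (-0.41, adjusted p 0.0110). Among 7 MAP kinase kinases Map2k6 was lower at 2 h (-0.55, adjusted p 0.0174), 4 h (-0.72, adjusted p 0.00600) and in rev against 0h (-0.76, adjusted p 0.00573). Map2k4 was higher (0.34) and Map2k3 lower (-0.37) at 2 h, and Map2k7 was higher in rev against 0h (0.41).

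Likeness of pattern was measured as Pearson's r of log2 CPM over the 16 libraries after the mean of each clone was removed, among 7892 protein-coding genes with a mean of at least 50 counts. It is a description, since the libraries share groups and clones. Genes alike to Dusp6 included Spry4 (0.981) and Zfp770 (0.961). For Dusp4 the genes most alike were Slc39a14 (0.963), Jmjd1c (0.962) and Ptpn12 (0.957), for Dusp5 Spred1 (0.952), Slc39a14 (0.938) and Reep3 (0.938), and for Dusp2 Tmsb4x (0.903), 1700061G19Rik (0.896) and Mcfd2 (0.891). Within the family, r was 0.905 between Dusp4 and Dusp5, 0.882 between Dusp4 and Dusp6 and 0.758 between Dusp5 and Dusp6.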

How the data were processed

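RNA of 16 libraries was measured by sequencing after depletion of ribosomal RNA (NEBNext kits, per the labels' protocols). The authors deposited a table of raw read counts per Ensembl gene ID. The submitters' processing notes name bcl2fastq 2.19.1, STAR 2.5.3a and build mm10; the counter, annotation and strand setting are not given in the sources used here. Symbols and exon lengths came from GENCODE M21 (GRCm38), which matched 52489 of 52636 IDs.

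Genes were kept by filterByExpr over the 4 groups (minimum count 10, minimum total 15), leaving 12742, and scaled by TMM. The quasi-likelihood test of edgeR 4.0.16 was fitted to all 16 libraries with group and clone, and a model with 1 term per group within each clone (8 terms) gave each clone's change and the clone differences. Ratios between members were compared by exact permutation within clones. Adjusted p-values are Benjamini-Hochberg over all genes tested, called under 0.05, and SE is the log2 change over the root of F. CPM used TMM-scaled totals of kept genes, and log2 CPM a prior count of 2. Genes named were all 10 phosphatases, the called gene of largest change at 4 h in each other list, every called gene where a list had 3 or fewer, and the 3 genes most alike for members called at 4 h. Single marker genes, clone differences of the other genes and correlations within the family were added after their values were seen. Some results of the named lists are not reported here. Members and lists were chosen with earlier results of these data known. The test was checked on simulated data with the same dispersion for all genes and no clone effect. Changes were placed only in genes of higher count. The check thus does not cover clone differences or genes of low count such as Dusp2 and Dusp8.

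The labels do not say that replicate numbers pair the samples, and the main model did not pair them. Deviations from group means correlated at 0.37 for same-numbered libraries of a clone and at 0.38 for other numbers, values that hold the clone effect. With clone means removed, same-numbered libraries correlated at -0.01. These values cannot show that no pairing existed. Alternatives were other scalings, filters and thresholds, DESeq2 1.42.0, no clone term, a replicate block, only the groups compared, single clones and each library left out. A comparison of protein sequences was not made. Depth was 4313599 to 10444126 counts per library, and low counts limit the precision for Dusp2 and Dusp8.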

Additional observations from a re-analysis of the deposited data

Results flagged for a closer look

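In 10 of 30 tests, the change of a gene differed between the clones (edgeR interaction term, adjusted p under 0.05, clone 8 minus clone 4 on the log2 scale). At 4 h against 0 h these were Dusp4 (-4.07), Dusp5 (-2.60), Dusp6 (-2.60) and Dusp16 (-0.95), beside 5.72% of all genes. At 2 h against 0 h it was Dusp5 (-1.36), beside 7.94%. From 4h to rev they were Dusp2 (3.61), Dusp4 (2.5003), Dusp5 (1.51), Dusp6 (2.31) and Dusp16 (0.87), beside 13.2%. The first 2 of these comparisons share the 0h libraries, and those at 4 h and from 4h to rev share the 4h libraries, so the tests are not independent. A single library stood apart from the other 3 of its group by Dixon's criterion, replicate 1 of clone 4 at 0 h for Dusp9, at 15.2 CPM. In all, 40 groups of 4 libraries were examined, and chance alone marks about 1 group in 20.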

How the results depend on the processing

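The number of genes called was 6 at 2 h against 0 h, with 5 to 6 when each library was left out in turn, and 4 at 4 h against 0 h in each of those fits; the 4 clone differences at 4 h were also 4 in each. Other counts moved. The share of all genes called under each setting below is not given, so these moves cannot be set against those of all genes. For 4h against 2h, 12.1% of all genes were called over both clones and 29.2% within clone 4 in the model of 8 terms. Without filtering low counts, 5 genes were called for 4h against 2h, 4 for rev against 2h and 2 for the clone difference at 2 h. At an adjusted p under 0.01 the counts were 1 for 4h against 2h, 1 for rev against 0h, 1 for rev against 2h and 0 for the clone difference at 2 h. Without the clone term they were 4 for 2h against 0h, 0 for 4h against 2h, 3 for rev against 4h, 1 for rev against 0h and 1 for rev against 2h. With only the groups compared they were 1 for 4h against 2h and 5 for rev against 2h. Clone 4 alone gave 6 for 4h against 2h and 4 for rev against 2h, and clone 8 alone gave 3 for rev against 4h and 4 for rev against 2h. Library totals gave 4 for rev against 2h, 3 for the clone level, 0 for the clone difference at 2 h and 3 for that from 4h to rev, and DESeq2 gave 0 for the clone difference at 2 h, where 8 genes had an adjusted p (edgeR 1). Leaving out each library gave 1 to 4 for 4h against 2h, 3 to 6 for rev against 4h, 1 to 3 for rev against 0h, 1 to 3 for rev against 2h, 5 to 7 for the clone level, 0 to 3 for the clone difference at 2 h and 3 to 5 for that from 4h to rev. In clone 8 alone the direction turned for Dusp6 at 4h against 2h (-0.47, adjusted p 0.0157) and for Dusp16 at 4h against 0h (-0.37, adjusted p 0.0431). For Dusp4 at 4h against 2h the sign also turned there, but the change was not called (-0.0172, adjusted p 0.972). With the replicate block, Dusp4 at 4h against 2h was at 1.39 with an adjusted p of 0.0604, and no other call of a member changed. Without the clone term Dusp8 lost its 4 calls (adjusted p 0.237 to 0.277), Dusp7 its call at 2 h (0.115), Dusp1 those of 4h and of rev against 2h (0.133 and 0.306), Dusp4 that of 4h against 2h (0.0925), Dusp5 those of rev against 4h and 0h (0.205 and 0.156) and Dusp2 those of 4h against 0h (0.0535) and rev against 4h (0.147). The cause of these shifts was not tested. Counts under 10 per library limit Dusp2 and Dusp8 in most groups, and the 0h level of Dusp4 in clone 4. Dusp6 also had 6 counts in replicate 1 of clone 4 at 0 h and 8 in replicate 1 of clone 8 in rev. Dusp10 had 7 counts in replicate 1 of clone 4 at 0 h and 9 in replicate 2 of clone 4 at 4 h.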
